A study of Mus musculus with 24 samples.

Results

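The nuclear-encoded subunit genes of the respiratory chain were followed through the differentiation of mouse embryonic stem cells, as 75 genes of the 55401 rows in a table of RNA sequencing counts. Members were taken by name: rows named Ndufa, Ndufb, Ndufc, Ndufs or Ndufv with a number, Sdha to Sdhd, and names that begin with Uqcr, Cox4 to Cox8 or Atp5. Of 89 rows with such names, 7 pseudogene names and 7 rows with fewer than 500 counts over all libraries were left out. No measured difference between groups entered the rule. The 75 members comprised 35 genes of complex I, 4 of complex II, 8 of complex III, 12 of complex IV and 16 of complex V, and all 75 were abundant enough to be tested.

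The cells were of the CJ9 mouse embryonic stem cell line, either with a knock-out of Setd3 (KO), made with CRISPR-Cas9, or wild-type (WT). Setd3 encodes an enzyme that methylates a histidine of actin. Both were sampled at days 0, 2, 3 and 4 of a differentiation towards definitive endoderm, which gave 8 groups of 3 libraries. Day 0 cells grew with LIF on inactivated mouse embryonic fibroblasts, were then taken off this feeder layer into serum-free medium, and received Activin A from day 2 on, both genotypes alike. The knock-out is 1 line, so an effect of the gene and a property of that line cannot be told apart. The labels do not say that replicates were separate cultures, so p-values measure the spread between these libraries, which may be technical.

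The respiratory chain sits in the inner mitochondrial membrane. Complex I takes electrons from NADH and complex II takes them from succinate, an intermediate of the TCA cycle. Both pass them to coenzyme Q, from there complex III hands them to cytochrome c, and complex IV gives them to oxygen. Complexes I, III and IV pump protons, and complex V, the ATP synthase, uses the gradient to make ATP. Complex II is encoded by nuclear genes alone, whereas the other complexes also hold subunits encoded in mitochondrial DNA. Embryonic stem cells rely strongly on glycolysis, and the balance between glycolysis and respiration is known to shift as pluripotent cells differentiate.

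Promoters of such genes are known for sites of NRF1 (nuclear respiratory factor), of ETS proteins such as GABP, and of YY1. RefSeq promoter windows on GRCm38.p6, from 250 bases before to 50 bases after the start, were matched for 65 of the 75 members. The 4 windows below are shown because each holds at least 1 of the motifs searched, and because these genes carried clear differences between KO and WT. Capitals mark the motif matches on either strand, which were GCGCA, any base and GCGC (NRF1) and GGGCGG (SP family) in Ndufb4, AANATGGCG (YY1) in Ndufb11, CCGGAAG (ETS) in Ndufb7, and GGGCGG in Cox6b2. The windows lie at chr16:37654319-37654618 on the minus strand for Ndufb4, chrX:20617570-20617869 on the minus strand for Ndufb11, chr8:83566508-83566807 on the plus strand for Ndufb7, and chr7:4753045-4753344 on the minus strand for Cox6b2.
Ndufb4: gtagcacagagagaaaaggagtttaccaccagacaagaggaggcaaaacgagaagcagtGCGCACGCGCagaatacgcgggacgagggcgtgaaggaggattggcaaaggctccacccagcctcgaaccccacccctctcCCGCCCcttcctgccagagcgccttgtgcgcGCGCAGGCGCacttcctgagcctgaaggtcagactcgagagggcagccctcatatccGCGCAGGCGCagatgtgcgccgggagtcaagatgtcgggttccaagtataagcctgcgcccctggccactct
Ndufb11: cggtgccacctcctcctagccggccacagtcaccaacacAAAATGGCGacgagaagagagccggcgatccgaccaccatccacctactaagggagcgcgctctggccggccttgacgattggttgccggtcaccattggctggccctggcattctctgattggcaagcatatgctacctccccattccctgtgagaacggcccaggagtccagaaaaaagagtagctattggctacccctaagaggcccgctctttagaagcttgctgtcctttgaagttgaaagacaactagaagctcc
Ndufb7: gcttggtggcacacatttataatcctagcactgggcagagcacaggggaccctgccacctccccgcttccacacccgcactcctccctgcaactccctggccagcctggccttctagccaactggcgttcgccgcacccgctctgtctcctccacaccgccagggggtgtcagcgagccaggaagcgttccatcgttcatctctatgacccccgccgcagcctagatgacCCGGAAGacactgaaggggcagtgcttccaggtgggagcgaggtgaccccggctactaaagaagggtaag
Cox6b2: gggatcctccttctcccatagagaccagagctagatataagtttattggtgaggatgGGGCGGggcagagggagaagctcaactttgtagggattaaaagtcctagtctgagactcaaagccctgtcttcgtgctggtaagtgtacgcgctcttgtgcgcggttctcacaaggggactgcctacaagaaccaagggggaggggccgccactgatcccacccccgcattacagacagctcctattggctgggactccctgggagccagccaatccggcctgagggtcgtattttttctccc

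The NRF1 motif was present in 17 of the 65 member windows (26.2%), against 5.19% of the windows of 27025 genes and 9.90% of those of the 12141 matched genes that were tested. The ETS motif was in 16 member windows (24.6%), against 9.93% of all windows and 17.6% of tested ones, and the YY1 motif in 10 (15.4%), against 2.76% and 5.05%. The SP motif was in 26 (40%), against 38.2% and 65.1%. Matches of different motifs can share bases. A match describes the letters in the window and is not a measured binding site.

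Library totals lay between 18531390 and 24244958 counts. Setd3 itself averaged 46.3, 30.9, 31.6 and 29.9 CPM (counts scaled to the size of the library) in KO cells and 122, 97.5, 120.2 and 124 CPM in WT cells at days 0, 2, 3 and 4, so the gene was lower in every KO group, although transcript remained in KO cells. Of 6 stem cell markers 5 were detected, and Sox2 was listed at 0 in every library. At day 4 the summed definitive endoderm markers ranged from 70.6 to 177 CPM in KO libraries and from 1598 to 1839 CPM in WT libraries, with all 6 of 6 lower in KO, whereas the summed stem cell markers ranged from 706 to 750.5 CPM in KO and from 188 to 308 CPM in WT. At day 3 the endoderm sums ranged from 8.10 to 9.78 CPM in KO and from 175 to 497 CPM in WT, and the stem cell sums from 690 to 701 CPM in KO and from 779 to 847 CPM in WT. Of the 5 tested stem cell markers, 2 were higher and 1 lower in KO at day 3. At day 4, 4 were higher and 1 lower. The 16 fibroblast markers summed to between 3327 and 7040 CPM in KO and between 3057 and 5685 CPM in WT at day 0, and to no more than 762 CPM in KO and 899 CPM in WT at later days. Their part, and that of the endoderm and stem cell markers, in the differences below was not tested. In bulk RNA, fewer cells of a type and less RNA per cell cannot be told apart.

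WT replicate 1 at day 0 and WT replicate 1 at day 3 stood above their groups, with summed member levels of 12099 CPM at day 0 against 10924 and 10727 CPM, and of 11134 CPM at day 3 against 10052 and 10247 CPM. The median member deviated from its group mean by 0.11 and 0.10 on the log2 scale in these libraries, ribosomal protein genes by 0.16 and 0.11, the quintile of shortest genes by 0.05 in both, and the quintile of longest genes by -0.07 and -0.05. Of the 75 members 55 belonged to the quintile of shortest genes, with an exon length of up to 2820 bases, and 0 to the longest. The part of exon length in the differences was tested only through a correction for it, whose counts are given beside the results. In addition, exons of 25 members overlap those of another gene, 9 of them by at least 10% of their length, and the sources used here do not state whether the counting used strand.

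**Figure D1:**
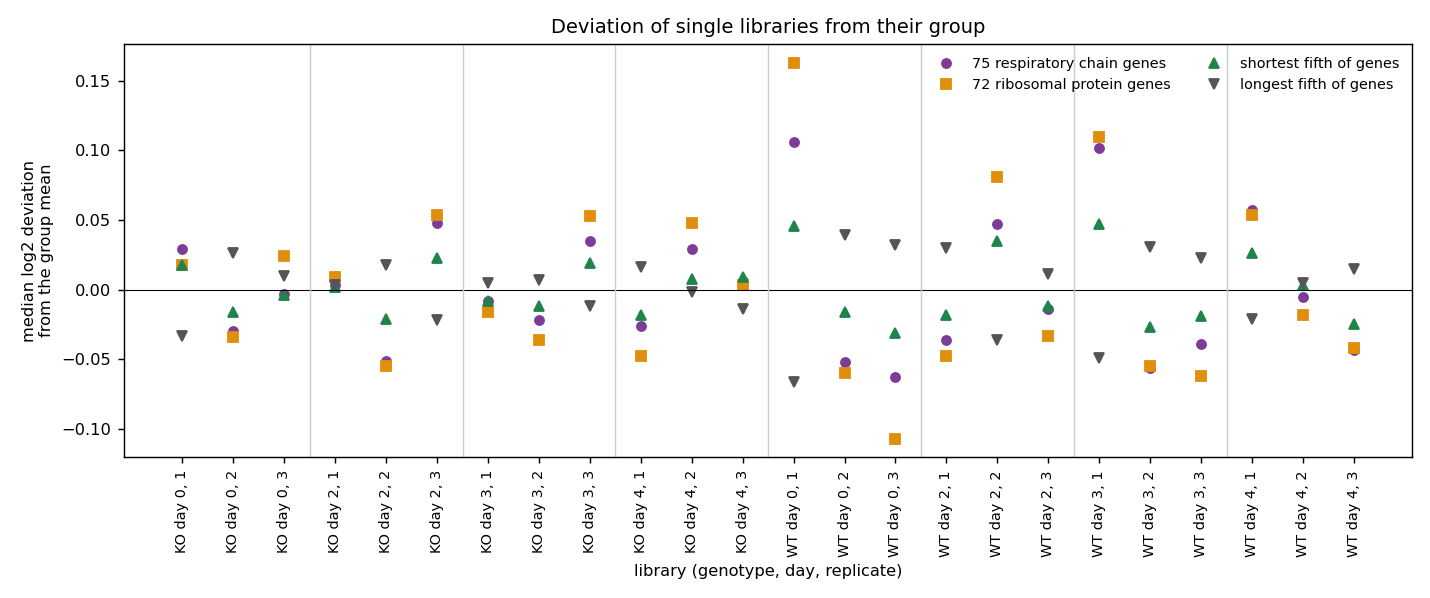
Median log2 deviation of single libraries from the mean of their group (y axis) for the 75 members, 72 ribosomal protein genes, and the quintiles of shortest and longest genes by exon length (symbols), with the 24 libraries by genotype, day and replicate on the x axis. WT replicate 1 at days 0 and 3 lies above 0 for the first 3 sets and below 0 for the longest genes.

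Most rows under the limit of 500 counts were subunit isoforms of restricted tissues. Cox4i2, the lung isoform of subunit 4, had 449 counts in all and Cox7b2 228, Cox8c 56 and Cox8b 15. Cox6a2, the muscle isoform of subunit 6a, was listed at 0. Cox4i1 and Ndufa13, subunits that every respiring cell uses, were also listed at 0 in every library, as were Emc8, whose exons overlap those of Cox4i1, and all 37 rows of mitochondrially encoded genes. The complexes described here therefore lack these subunits. The members just above the limit were Cox7a1 with 1465 counts, Atp5s with 4505 and Ndufs5 with 6439.

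Per kilobase of exon and over all libraries, levels differed widely within each complex. In complex I the mean was highest for Ndufa4 at 101 CPM per kilobase and lowest for Ndufb2 at 2.47. Ndufa4 is counted here by name but is a subunit of complex IV in humans. In complex II it was highest for Sdhd at 127 and lowest for Sdhc at 31.7. In complex III it was highest for Uqcr10 at 117 and lowest for Uqcrq at 42.2. In complex IV it was highest for Cox8a at 251 and lowest for Cox7a1 at 5.4, and in complex V highest for Atp5b at 467 and lowest for Atp5s at 4.38. With the length of the principal transcript, the highest were Uqcrh in complex III and Cox7c in complex IV.

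The clearest change in both genotypes was a fall between days 0 and 2, seen in the summed level of every complex but complex II. The 75 members summed to 11176 ± 92.8, 10174 ± 310, 9976 ± 124 and 9694 ± 152 CPM in KO cells at days 0, 2, 3 and 4 and to 11250 ± 741, 9601 ± 366, 10478 ± 577 and 9833 ± 309 CPM in WT cells (SD, n = 3 each). The sum at day 2 differed from that at day 0 by -8.97% in KO and by -14.7% in WT. At day 3 it differed from that at day 2 by -1.94% in KO and by 9.13% in WT. The largest single parts of the sum were Atp5b and Atp5a1, with means of 1978 and 1266 CPM over all libraries. The sum was not tested.

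**Figure D2:**
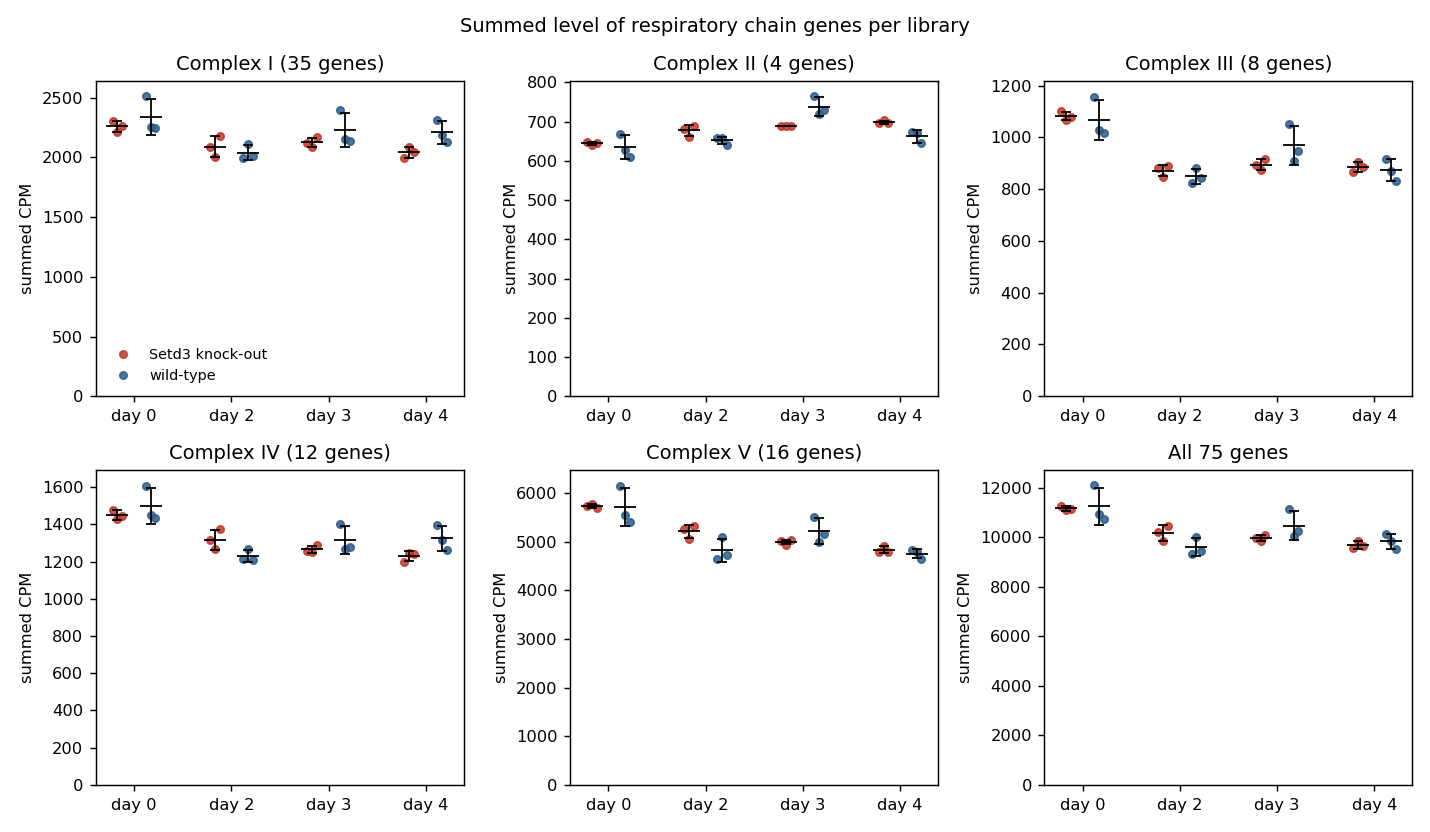
Summed CPM of the members of each complex and of all 75 (y axes, from 0) by day (x axis), KO left of WT; points are libraries, the bar is the mean and the whiskers are 1 SD (n = 3). Complexes I, III, IV and V are lower at day 2 than at day 0 in both genotypes, while complex II is not.

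At day 2 against day 0, 35 members fell and 7 rose in KO, where 30.6% of the 17144 tested genes fell and 29.5% rose, and 49 fell and 4 rose in WT, against 31.8% and 32.0% of tested genes. All 35 members that fell in KO also fell in WT, which is 100% of the KO list and 71.4% of the WT list. This overlap was not counted over all tested genes, so it is not read as a trait of the members. The median member changed by -0.14 in KO and by -0.27 in WT on the log2 scale, whereas the median of all genes lay at -0.01 in KO and 0.01 in WT. Only 1 member rose at least 1.5-fold in KO and 1 in WT, which was Cox6b2 in both, and 0 fell that far in KO and 4 in WT. Of tested genes 16.7% rose that far in KO and 19.6% in WT, and 19.6% fell that far in KO and 20.3% in WT. The fibroblast markers fell 16 of 16 in both genotypes at this step. After the correction for exon length 7 rose and 45 fell in KO, and 3 rose and 50 fell in WT. The 7 that rose in KO became 4 without KO replicate 2 of day 0 or KO replicate 3 of day 2. No member passed the test for a difference of this step between KO and WT, with 4.27% of tested genes called higher and 3.07% lower. At an unadjusted p under 0.05 there were 13 members, 12 of them higher in KO, and DESeq2 called 2.

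At day 3 against day 2, 16 members were called in KO and 33 in WT. In KO 6 members rose and 10 fell, against 14.7% and 14.4% of tested genes, with a median of -0.02. In WT 32 rose and 1 fell, against 21.4% and 21.1% of tested genes, with a median of 0.14. These WT counts shrank to 17 and 3 without WT replicate 1 of day 3, and were 21 and 5, with a median of 0.06, after the length correction. With only the days compared in the fit they were 21 and 2 in WT and 10 and 16 in KO, and after the length correction 8 and 11 in KO. The KO counts were 2 and 8 without KO replicate 1 of day 2, 2 and 9 without KO replicate 2 of day 2, 3 and 7 without KO replicate 1 of day 3 and 3 and 6 without KO replicate 2 of day 3. The KO step minus WT step was negative past the test for 7 members and positive for 0, against 4.33% and 6.61% of tested genes. Without regard to the test, 7 of 75 differences were positive, as were 8421 of the 17144 over all tested genes. The median difference was -0.14 for the members, -0.14 for 72 ribosomal protein genes, -0.08 for the quintile of shortest genes and 0.01 for that of the longest. These 7 became 2 without WT replicate 1 of day 3 or without WT replicate 3 of day 2, 3 without KO replicate 3 of day 2 or KO replicate 2 of day 3, and 4 without KO replicate 1 of day 2 or WT replicate 1 of day 2. After the length correction 6 were called.

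At day 4 against day 3, 3 members rose and 2 fell in KO, against 5.76% and 5.83% of tested genes. These were 3 and 10 with only the days compared in the fit, 1 and 2 without KO replicate 2 of day 3 or KO replicate 3 of day 4, and 3 and 4 after the length correction. In WT 9 rose and 19 fell, against 22.4% and 23.1% of tested genes, or 15 and 17 after the length correction. Without WT replicate 1 of day 3 these were 14 and 11, without WT replicate 1 of day 4 they were 5 and 19, and without WT replicate 3 of day 4 they were 9 and 11. The step differed between the genotypes for 9 members, with 4 higher and 5 lower in KO, against 12.6% and 11.2% of tested genes, or 4 and 7 after the length correction. Without WT replicate 2 of day 3 these were 7 and 3, and without WT replicate 1 of day 4 they were 5 and 2.

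Between the genotypes, most members called were lower in KO at days 0, 3 and 4 and higher in KO at day 2. These counts and splits changed when single libraries were left out. At day 2 the share of members called higher was only a little above that of all tested genes (16.2%). The split on that day came with few members called lower, 6.67% against 15.7%. At day 0, 4 members were higher and 13 lower in KO than in WT, against 10.6% and 10.5% of tested genes. These became 3 and 6 without KO replicate 2 of day 0, 2 and 13 without WT replicate 2 of day 0, and 5 and 5 without WT replicate 1 of day 0. With only the day 0 groups in the fit they were 0 and 3, namely Atp5k, Ndufa7 and Ndufb11, and after the length correction 5 and 13. At day 2, 15 were higher and 5 lower, against 16.2% and 15.7%, or 9 and 3 without KO replicate 1 or without WT replicate 1 of that day, 13 and 3 without replicate 2 of either genotype, 17 and 8 with only the day 2 groups in the fit, and 14 and 6 after the length correction. At day 3, 3 were higher and 25 lower, against 20.8% and 20.5%. Without WT replicate 1 of day 3 these were 3 and 15, without KO replicate 2 of day 3 they were 3 and 16, and after the length correction 11 and 17. At day 4, 8 were higher and 26 lower, against 26.3% and 27.6%, or 12 and 24 after the length correction, 9 and 19 without WT replicate 1 of that day and 5 and 26 without KO replicate 2 of it. The median member differed by -0.10 at day 3 and -0.09 at day 4, beside -0.09 and -0.13 for the ribosomal protein genes and -0.07 and -0.04 for the quintile of shortest genes. At day 4, differences of at least 1.5-fold were called for 1 member higher and 3 lower, against 12.1% and 17.0% of tested genes.

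**Figure D3:**
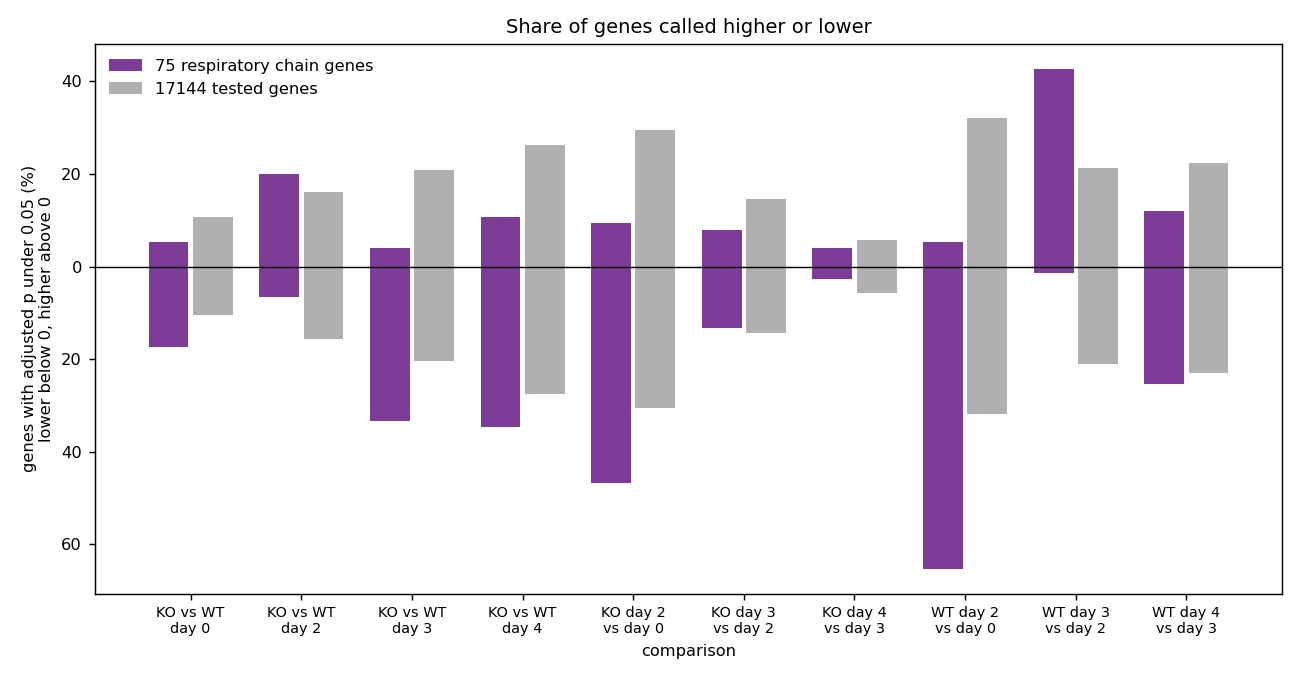
Share of the 75 members and of the 17144 tested genes called higher (above 0) or lower (below 0) at an adjusted p under 0.05 (y axis, percent) in each comparison (x axis). Member bars reach below those of all genes at day 2 against day 0, with 35 of 75 lower in KO and 49 in WT, and above them at day 3 against day 2 in WT, with 32 higher.

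Across the 4 days, which share no library, Cox6b2 was the member called higher in KO on every day, and Ndufb7 was on 3 days. Atp5k and Ndufb11 were called lower in KO on every day, and Cox7a2l, Ndufa3, Ndufb3, Ndufb4, Ndufs3 and Ndufv1 on 3 days. Among these calls, that of Ndufv1 at day 4 was lost without any 1 of the 6 libraries compared (adjusted p of 0.0638 to 0.139), and at day 0 without KO replicate 2 of day 0 or WT replicate 1 of day 0 (0.065 and 0.0656). The call of Ndufa3 at day 2 was likewise lost without any 1 of 6 libraries (adjusted p of 0.0603 to 0.137), and that of Ndufb3 at day 0 on leaving out KO replicate 1, 2 or 3 of day 0 or WT replicate 1 or 3 of day 0 (adjusted p of 0.0582 to 0.207). How many of all tested genes were called the same way on 3 or 4 days was not counted, so the repeated calls have no such share beside them. At day 4, 12 members had all 3 KO libraries above the WT libraries and 30 had them below, against 29.3% and 31.4% of tested genes. At day 3 the numbers were 6 and 33, against 27.4% and 27.4%.

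**Figure D4:**
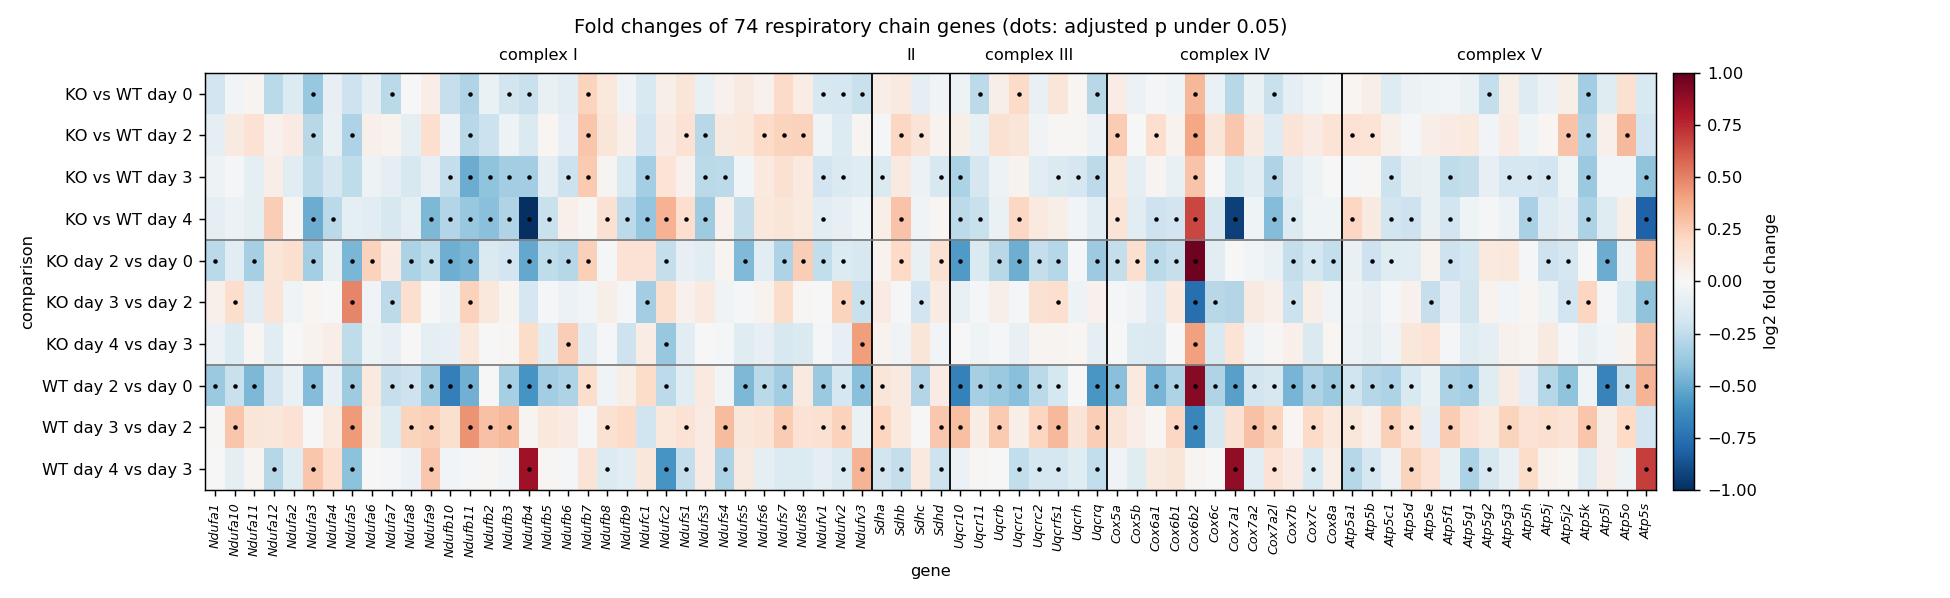
Log2 fold change (colour, scale from -1 to 1) of 74 members (x axis, by complex) in 10 comparisons (y axis: KO against WT at each day, then the later against the earlier day within KO and within WT), with dots for an adjusted p under 0.05. The row of WT day 2 against day 0 is mostly blue, and the darkest blue cell is Ndufb4 in KO against WT at day 4.

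Complex I, the NADH dehydrogenase, had 2 of its 35 members higher and 8 lower in KO at day 0, 6 and 4 at day 2, 2 and 11 at day 3, and 3 and 13 at day 4. As shares these were 5.71% and 22.9% at day 0, 17.1% and 11.4% at day 2, 5.71% and 31.4% at day 3, and 8.57% and 37.1% at day 4, beside 10.6% and 10.5%, 16.2% and 15.7%, 20.8% and 20.5%, and 26.3% and 27.6% of tested genes. Its summed level in KO differed from that in WT by -7.6% at day 4, where the KO libraries lay between 1996 and 2088 CPM and the WT libraries between 2131 and 2316 CPM. At day 2 against day 0, 17 members fell in KO (48.6%, beside 30.6% of tested genes) and 21 in WT (60.0%, beside 31.8%).

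The largest difference between the genotypes belonged to Ndufb4 (ENSMUSG00000022820, chr16:37647170-37654453), an accessory subunit of the membrane arm. It was at 43.1, 39.8 and 45.2 CPM in KO and 50.6, 48.4 and 50.5 CPM in WT at day 0, and at 26.1, 25.7 and 28 CPM in KO and 36.1, 32.1 and 33.3 CPM in WT at day 3. At day 4 it was at 28.3, 30.5 and 31.7 CPM in KO, against 68.2, 59.3 and 55.3 CPM in WT. The groups did not overlap on these days, and the WT libraries of day 4 stood above every other library. Ndufb4 was lower in KO at day 4 (log2 fold change -1.01 ± 0.08, adjusted p = 8.22e-11) and at day 3 (-0.35 ± 0.08, adjusted p = 0.000991). At day 4 against day 3 it gave 0.18 ± 0.08, adjusted p = 0.149 in KO, while it rose in WT (0.85 ± 0.08, adjusted p = 3.06e-09), and the difference between the steps was -0.67 ± 0.11, adjusted p = 7.23e-05. Here and below, the value after ± is an approximate standard error, the size of the log2 fold change over the root of the F statistic. The lower level at day 0 was called (-0.22 ± 0.08, adjusted p = 0.0376) but lost when a single library was left out (KO replicate 1 or 2 of day 0 or WT replicate 1, 2 or 3 of day 0), with adjusted p of 0.054 to 0.19.

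Ndufb11 (ENSMUSG00000031059, chrX:20615326-20617619), another membrane arm subunit, was lower in KO on every day. In KO its libraries were at 62.9, 58.2 and 59 CPM at day 0, 41.9, 41.9 and 47 CPM at day 2, 51.3, 49 and 53.3 CPM at day 3 and 54.2, 54.8 and 56.6 CPM at day 4. In WT they were at 76.1, 73 and 73 CPM at day 0, 50.4, 55.9 and 52.6 CPM at day 2, 83.9, 65.6 and 67.7 CPM at day 3 and 74, 70 and 71.4 CPM at day 4. The genotypes overlapped on no day. KO against WT gave -0.30 ± 0.07, adjusted p = 0.00331 on day 0, -0.28 ± 0.07, adjusted p = 0.005 on day 2, -0.50 ± 0.07, adjusted p = 4.96e-06 on day 3 and -0.38 ± 0.07, adjusted p = 8.02e-05 on day 4. Of its exon length 12.9% overlaps Rbm10 on the other strand.

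Ndufb7 (ENSMUSG00000033938, chr8:83566671-83571626), a subunit on the intermembrane space side, went the other way. Its KO libraries were at 73, 68.6 and 78.9 CPM and its WT libraries at 56.4, 64.4 and 60.9 CPM at day 2, and at 68.7, 72.5 and 74.6 CPM in KO and 65.8, 55.8 and 58.6 CPM in WT at day 3. By day 4 they overlapped, at 63.3, 68.2 and 68.2 CPM in KO and 68.5, 64.7 and 64.7 CPM in WT. KO over WT, on the log2 scale, came to 0.28 ± 0.07, adjusted p = 0.00209 on day 2, 0.26 ± 0.07, adjusted p = 0.00253 on day 3 and 0.01 ± 0.07, adjusted p = 0.884 on day 4. At day 0 it was 0.22 ± 0.07, adjusted p = 0.0192, a call lost without WT replicate 2 of that day (adjusted p = 0.0945) and after the length correction (adjusted p = 0.0654).

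Ndufs3, a core subunit near the coenzyme Q binding site, was lower in KO, at 57.7, 58.3 and 58.7 CPM against 79.9, 74.4 and 69.6 CPM in WT at day 4 (-0.36 ± 0.06, adjusted p = 6.76e-06), without overlap. It was lower at day 2 (-0.28 ± 0.06, adjusted p = 0.000465) and day 3 (-0.27 ± 0.06, adjusted p = 0.000407) as well. Ndufs8, an iron-sulphur subunit, was one of the 7 members that rose at day 2 in KO (0.25 ± 0.07, adjusted p = 0.00255), while its WT step gave 0.09 ± 0.07, adjusted p = 0.242.

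Ndufs4, an accessory subunit whose loss in mice serves as a model of Leigh syndrome, differed between the genotypes at day 3. The KO libraries ranged over 80 to 84.8 CPM at day 2, 76.5 to 85 CPM at day 3 and 75.5 to 87.1 CPM at day 4. The WT libraries were at 73, 83.2 and 78 CPM at day 2, 101, 93.2 and 97 CPM at day 3 and 79.7, 78.2 and 75.8 CPM at day 4. The step from day 2 to day 3 differed between the genotypes (-0.35 ± 0.09, adjusted p = 0.00816), and so did that from day 3 to day 4 (0.30 ± 0.09, adjusted p = 0.0121). Both differences use the day 3 libraries. The second call was lost without KO replicate 2 of day 4 (adjusted p = 0.0505).

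Ndufa5, an accessory subunit of the peripheral arm, fell at day 2 and rose at day 3 in both genotypes. In KO it was at 32.2, 31.5 and 32.5 CPM at day 0, 21.9, 23.5 and 24.6 CPM at day 2 and 31.2, 33.3 and 33.7 CPM at day 3. In WT it was at 42, 33 and 35.8 CPM at day 0, 29.5, 29.7 and 27.6 CPM at day 2 and 45.3, 39.2 and 32.3 CPM at day 3. It fell at day 2 in KO (-0.46 ± 0.11, adjusted p = 0.000697) and WT (-0.35 ± 0.10, adjusted p = 0.0051) and rose at day 3 in KO (0.49 ± 0.11, adjusted p = 0.00113) and WT (0.43 ± 0.10, adjusted p = 0.00194). Ndufa3, of the membrane arm, was lower in KO at day 4, at 18.9, 18.7 and 21.5 CPM against 28.5, 26.8 and 28 CPM in WT (-0.50 ± 0.10, adjusted p = 0.00023). At day 0 it gave -0.38 ± 0.10, adjusted p = 0.00941, a call lost without WT replicate 1 (adjusted p = 0.0802) or KO replicate 3 (adjusted p = 0.0555) of that day.

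Among other complex I members, Ndufb10 fell at day 2 in KO (-0.49 ± 0.09, adjusted p = 4.31e-05) and WT (-0.69 ± 0.09, adjusted p = 2.77e-07), and Ndufb2 was lower in KO at day 3 (-0.40 ± 0.10, adjusted p = 0.00278) and day 4 (-0.42 ± 0.10, adjusted p = 0.00128). Ndufb3 gave 0.03 ± 0.07, adjusted p = 0.795 for the step to day 3 in KO and rose in WT (0.33 ± 0.07, adjusted p = 0.00029). Ndufc2 fell between days 3 and 4 in KO (-0.38 ± 0.09, adjusted p = 0.00708) and WT (-0.59 ± 0.09, adjusted p = 9.81e-06) and was higher in KO at day 4, at 35.5, 38.9 and 39.9 CPM against 28.7, 31.1 and 30.1 CPM in WT (0.35 ± 0.09, adjusted p = 0.00254). Its call in KO was lost without KO replicate 1 of day 4 (adjusted p = 0.0513). Ndufv3, an accessory subunit beside the NADH binding site, rose between days 3 and 4 in KO (0.42 ± 0.08, adjusted p = 0.00102) and WT (0.34 ± 0.08, adjusted p = 0.00102). Ndufv2, a core subunit of the NADH module, rose at day 3 in KO (0.22 ± 0.06, adjusted p = 0.0037) and WT (0.23 ± 0.05, adjusted p = 0.0016). Ndufb6 was called higher in KO at day 4 against day 3 (0.25 ± 0.07, adjusted p = 0.0276), which was lost on leaving out KO replicate 1, 2 or 3 of day 3 or KO replicate 2 or 3 of day 4. Of the exon length of Ndufb6 39% overlaps Smim27 on the other strand. Ndufc1 fell at day 3 in KO (-0.35 ± 0.09, adjusted p = 0.00502). Ndufa9, an accessory subunit, was lower in KO at day 4, at 91.3, 94.9 and 88.8 CPM against 138, 125 and 113 CPM in WT (-0.45 ± 0.08, adjusted p = 2.11e-05).

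**Figure D5:**
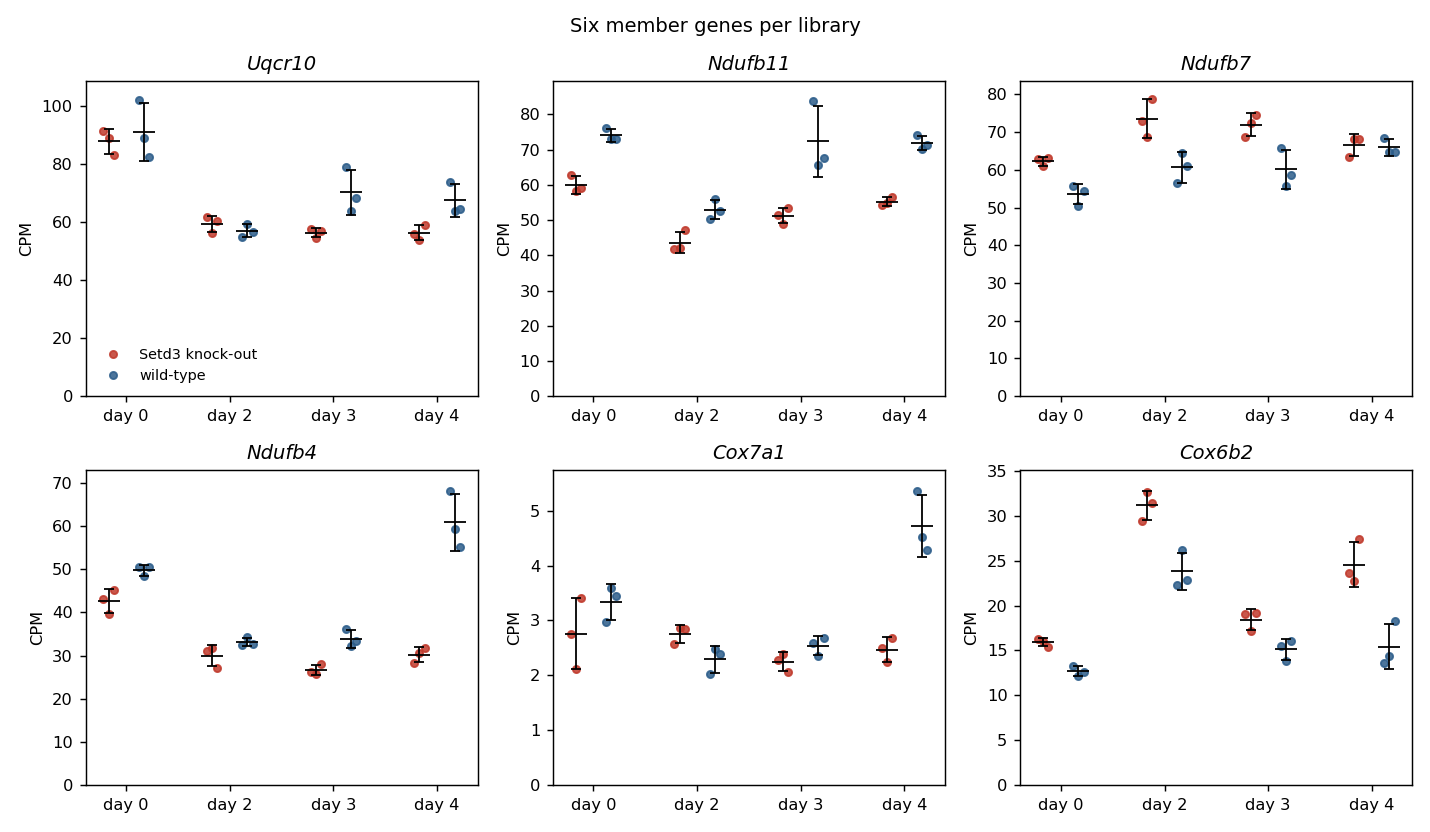
CPM (y axes, from 0) of 6 members by day (x axis), KO left of WT; points are libraries, the bar is the mean and the whiskers are 1 SD (n = 3). Ndufb4 and Cox7a1 stand high in WT at day 4, Ndufb11 is lower and Cox6b2 higher in KO on each day.

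Complex II, succinate dehydrogenase, is a complex of 4 subunits, all nuclear. Its 4 members summed to 645 ± 3.99, 678 ± 14.3, 689.5 ± 0.465 and 699 ± 3.89 CPM in KO at days 0, 2, 3 and 4, and to 635.5 ± 29.6, 652 ± 9.46, 738 ± 23.5 and 662.5 ± 15.8 CPM in WT (SD, n = 3 each). The KO sum was thus highest at day 4, and the WT sum at day 3.

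Sdhb, the iron-sulphur subunit, was higher in KO at 2 of 4 days. Its libraries were at 126, 125 and 131 CPM in KO and 114, 109 and 108 CPM in WT at day 2, and at 121, 126 and 119 CPM in KO and 103, 101 and 96.2 CPM in WT at day 4, without overlap on either day. KO over WT, on the log2 scale, came to 0.21 ± 0.05, adjusted p = 0.00139 on day 2 and 0.28 ± 0.05, adjusted p = 1.42e-05 on day 4. Sdhb rose at day 2 in KO (0.20 ± 0.05, adjusted p = 0.000821) and fell at day 4 in WT (-0.24 ± 0.05, adjusted p = 0.000193). Sdha, the flavoprotein that oxidises succinate, was at 314, 309 and 304 CPM in KO and 355, 337 and 333 CPM in WT at day 3 (-0.15 ± 0.04, adjusted p = 0.00179). It rose in WT at day 2 (0.12 ± 0.04, adjusted p = 0.00405) and at day 3 (0.21 ± 0.04, adjusted p = 3.39e-05). Its step to day 4 gave 0.03 ± 0.04, adjusted p = 0.612 in KO, while it fell in WT (-0.18 ± 0.04, adjusted p = 0.000186), and these steps differed (0.21 ± 0.05, adjusted p = 0.00274).

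Sdhc and Sdhd are the membrane anchors. Sdhc fell at day 3 in KO (-0.19 ± 0.05, adjusted p = 0.00509) and at day 2 in WT (-0.30 ± 0.05, adjusted p = 1.37e-05). In KO at day 3 it was at 94.4, 91.9 and 91.2 CPM, against 105, 103 and 108 CPM at day 2. Sdhc was called higher in KO than in WT at day 2 (0.13 ± 0.05, adjusted p = 0.0498), a call lost when a single library was left out (KO replicate 1, 2 or 3 of day 2 or WT replicate 1 or 2 of day 2), with adjusted p of 0.0611 to 0.155. Sdhd was at 160.3, 163 and 166 CPM in KO and 192, 170.0 and 184 CPM in WT at day 3, and rose in WT at that step (0.27 ± 0.06, adjusted p = 0.000361). The difference between KO and WT was called (-0.16 ± 0.06, adjusted p = 0.0255) and lost on leaving out a single library (KO replicate 1 or 2 of day 3 or WT replicate 1 or 3 of day 3), with adjusted p of 0.0567 to 0.149.

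Complex III, the cytochrome bc1 complex, had the largest change of summed level at day 2 of the 5 complexes, with -19.5% in KO and -20.3% in WT. Of 8 members 6 fell in KO, where 30.6% of tested genes fell, and 7 in WT, where 31.8% did. In KO against WT, 1 was higher and 2 lower at day 0, beside 10.6% and 10.5% of tested genes. At day 2, 0 were called, beside 16.2% and 15.7%. At day 4, 1 was higher and 2 lower, beside 26.3% and 27.6%. The summed level in KO differed from that in WT by -7.61% at day 3 and by 1.34% at day 4. At day 3 against WT, 4 were lower in KO and 0 higher, beside 20.5% and 20.8% of tested genes. Of these, the calls of Uqcrfs1 and Uqcrh were lost without WT replicate 1 of day 3 (adjusted p of 0.34 and 0.322). Leaving out some other single libraries also ended them. Uqcr10 (ENSMUSG00000059534, chr11:4701973-4704342), a small subunit, was at 91.6, 89 and 83.2 CPM at day 0 and 61.6, 56.1 and 60.3 CPM at day 2 in KO, and at 102, 88.9 and 82.4 CPM at day 0 and 54.9, 59.4 and 56.7 CPM at day 2 in WT. At day 3 it was at 57.8, 54.6 and 57 CPM in KO, against 78.9, 63.9 and 68.2 CPM in WT, and at day 4 at 56, 54 and 59.1 CPM in KO, against 74, 63.8 and 64.7 CPM in WT. The genotypes overlapped at days 0 and 2 and not at days 3 and 4.

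Uqcr10 fell at day 2 in KO (-0.57 ± 0.08, adjusted p = 8.86e-07) and WT (-0.68 ± 0.08, adjusted p = 4.73e-08). At day 3 the KO step gave -0.07 ± 0.08, adjusted p = 0.541, while it rose in WT (0.30 ± 0.08, adjusted p = 0.00304). It was lower in KO at day 3 (-0.32 ± 0.08, adjusted p = 0.00202) and at day 4 (-0.26 ± 0.08, adjusted p = 0.00689), where the call was lost without WT replicate 1 of day 4 (adjusted p = 0.0663). The difference of steps at day 3 (-0.38 ± 0.11, adjusted p = 0.0285) was lost on leaving out a single library (KO replicate 1 or 3 of day 2, KO replicate 2 of day 3, WT replicate 1 or 3 of day 2 or WT replicate 1 of day 3), with adjusted p of 0.0587 to 0.114. Uqcrc1, a core subunit, was higher in KO at day 0, at 298, 307 and 314 CPM against 290.5, 259 and 257 CPM in WT (0.19 ± 0.05, adjusted p = 0.00465), and at day 4 (0.21 ± 0.05, adjusted p = 0.000694). It fell at day 2 in KO (-0.49 ± 0.05, adjusted p = 2.82e-09) and WT (-0.42 ± 0.05, adjusted p = 3.12e-08). Uqcrq, a small subunit, was lower in KO at day 3, at 67.3, 67 and 74 CPM against 87.3, 81.8 and 80.8 CPM in WT (-0.26 ± 0.07, adjusted p = 0.00331).

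Complex IV, cytochrome c oxidase, exists with subunit isoforms that differ between tissues. Of its 12 members 6 fell and 2 rose at day 2 in KO, beside 30.6% and 29.5% of tested genes, and 10 fell and 1 rose in WT, beside 31.8% and 32.0%. At day 0, 1 was higher and 1 lower in KO than in WT, beside 10.6% and 10.5%. At day 2 these were 3 and 0, beside 16.2% and 15.7%, and at day 3 they were 1 and 1, beside 20.8% and 20.5%. At day 4, 2 were higher and 5 lower in KO than in WT, beside 26.3% and 27.6%. The summed level of complex IV in KO differed from that in WT by 7.14% at day 2 and by -7.26% at day 4. At day 4 the KO libraries lay between 1198 and 1247 CPM and the WT libraries between 1263 and 1395 CPM. The isoform pairs are given as levels of each gene across groups, not as levels between genes.

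Cox6b2 (ENSMUSG00000051811, chr7:4751792-4753094), the testis isoform of subunit 6b, had the largest rise at day 2 of all members in both genotypes. In KO it was at 16.2, 16.1 and 15.4 CPM at day 0, 29.5, 32.6 and 31.4 CPM at day 2, 19, 17.1 and 19.2 CPM at day 3 and 23.6, 22.8 and 27.4 CPM at day 4. In WT it was at 13.3, 12.1 and 12.6 CPM at day 0, 22.3, 26.2 and 22.9 CPM at day 2, 15.5, 13.8 and 16 CPM at day 3 and 13.6, 14.4 and 18.3 CPM at day 4. No KO library overlapped WT on any day. It rose at day 2 in KO (0.97 ± 0.10, adjusted p = 1.07e-08) and WT (0.91 ± 0.10, adjusted p = 3.69e-08) and fell at day 3 in KO (-0.76 ± 0.10, adjusted p = 2.65e-06) and WT (-0.65 ± 0.10, adjusted p = 1.5e-05).

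Cox6b2 was higher in KO at day 2 (0.39 ± 0.10, adjusted p = 0.00391) and day 4 (0.67 ± 0.10, adjusted p = 4.74e-06). The calls at day 0 (0.33 ± 0.11, adjusted p = 0.027) and day 3 (0.29 ± 0.10, adjusted p = 0.028) were lost on leaving out a single library. At day 0 this was KO replicate 1 or 2 of day 0 or WT replicate 1, 2 or 3 of day 0, with adjusted p of 0.0501 to 0.0891, and at day 3 KO replicate 1 or 3 of day 3 or WT replicate 2 of day 3, with adjusted p of 0.085 to 0.125. The 4 testis and germ cell markers, of which Sycp3 was at 0, were summed in each library. In KO the sums ranged from 31.9 to 36.7 CPM at day 0 and from 32.8 to 35.7 CPM at day 2. They then ranged from 18.9 to 22.4 CPM at day 3 and from 3.84 to 5.85 CPM at day 4. In WT the sums ranged from 26.0 to 31.6 CPM at day 0 and from 19.4 to 27.0 CPM at day 2. They then ranged from 6.51 to 9.9 CPM at day 3 and from 0.69 to 1.36 CPM at day 4. The part of these markers in the level of Cox6b2 was not tested. Cox6b1, the ubiquitous isoform, fell at day 2 in KO (-0.23 ± 0.06, adjusted p = 0.0018) and WT (-0.31 ± 0.06, adjusted p = 8.04e-05) and was lower in KO at day 4 (-0.19 ± 0.06, adjusted p = 0.00854), a call lost without WT replicate 1 of day 4 (adjusted p = 0.0632).

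Cox7a1 (ENSMUSG00000074218, chr7:30184144-30186078), the heart and muscle isoform of subunit 7a, was scarce and rose at day 4 in WT. It was at 2.29, 2.39 and 2.06 CPM in KO and 2.59, 2.34 and 2.68 CPM in WT at day 3. At day 4 it was at 2.5, 2.24 and 2.68 CPM in KO, against 5.36, 4.52 and 4.28 CPM in WT. The groups overlapped at day 3 and not at day 4, where KO was lower (-0.93 ± 0.17, adjusted p = 6.5e-05). The KO step from day 3 was 0.14 ± 0.18, adjusted p = 0.7, the WT step 0.89 ± 0.17, adjusted p = 0.000155, and their difference -0.75 ± 0.25, adjusted p = 0.0308, which was lost on leaving out a single library (KO replicate 1 or 2 of day 3, KO replicate 1 or 2 of day 4, WT replicate 2 of day 3 or WT replicate 1 of day 4), with adjusted p of 0.0535 to 0.0874. The 10 cardiac and muscle markers, of which Actc1 was at 0, summed to between 14.4 and 19.7 CPM in KO and between 24.4 and 53.4 CPM in WT at day 4, with 2 higher and 2 lower in KO, and their part was not tested.

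Cox7a2, the isoform found in most tissues, gave -0.03 ± 0.07, adjusted p = 0.716 for the step to day 2 and 0.09 ± 0.07, adjusted p = 0.319 for the step to day 3 in KO. In WT it fell at day 2 (-0.19 ± 0.07, adjusted p = 0.0158) and rose at day 3 (0.29 ± 0.07, adjusted p = 0.000811). The fall in WT was lost without WT replicate 1 of day 0 (adjusted p = 0.0531) or of day 2 (adjusted p = 0.0979). Cox7a2l, which links complexes III and IV into supercomplexes in mice, was lower in KO at day 4, at 102, 108 and 101 CPM against 145, 147 and 127 CPM in WT (-0.43 ± 0.06, adjusted p = 7.99e-07). It was lower at day 3 as well (-0.30 ± 0.06, adjusted p = 0.000186), and at day 0 (-0.22 ± 0.06, adjusted p = 0.00825) until KO replicate 2 of day 0 was left out (adjusted p = 0.054). Cox6a1, the ubiquitous subunit 6a, was lower in KO at day 4 (-0.21 ± 0.06, adjusted p = 0.00412). Cox7b fell at day 2 in KO (-0.24 ± 0.05, adjusted p = 0.000591) and WT (-0.47 ± 0.06, adjusted p = 6.38e-08), and so did Cox8a in KO (-0.24 ± 0.06, adjusted p = 0.00172) and WT (-0.37 ± 0.06, adjusted p = 1.27e-05).

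Complex V, the ATP synthase, differed in summed level at day 2 from day 0 by -9.13% in KO and by -15.4% in WT, with 6 of 16 members lower in KO (37.5%, beside 30.6% of tested genes) and 10 in WT (62.5%, beside 31.8%). At day 0, 2 were lower in KO than in WT and 0 higher, beside 10.5% and 10.6% of tested genes. At day 2, 1 was lower and 4 higher, beside 15.7% and 16.2%. At day 3, 7 were lower in KO than in WT and 0 higher, beside 20.5% and 20.8%. At day 4, 6 were lower and 1 higher, beside 27.6% and 26.3%. The summed level in KO differed from that in WT by 7.98% at day 2, -4.32% at day 3 and 1.61% at day 4. The day 3 calls of Atp5g3, Atp5h and Atp5j were lost without WT replicate 1 of day 3 (adjusted p of 0.291, 0.244 and 0.198). Leaving out some other single libraries also ended them. Atp5k, subunit e of the membrane part, was lower in KO on every day. It was at 42.9, 42.8 and 39.9 CPM in KO and 59.7, 49.8 and 50.4 CPM in WT at day 0, and at 40.7, 41 and 43.5 CPM in KO and 52.4, 53.7 and 49 CPM in WT at day 2. At day 3 it was at 49.1, 48.7 and 47.5 CPM in KO and 67.2, 63.8 and 57.1 CPM in WT, and at day 4 at 45.2, 46.1 and 46.8 CPM in KO and 61.9, 57.2 and 52.9 CPM in WT. The genotypes overlapped on no day, and KO over WT, on the log2 scale, came to -0.35 ± 0.07, adjusted p = 0.00116 on day 0, -0.31 ± 0.07, adjusted p = 0.00213 on day 2, -0.37 ± 0.07, adjusted p = 0.000184 on day 3 and -0.32 ± 0.07, adjusted p = 0.000649 on day 4.

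Atp5s (ENSMUSG00000054894, chr12:69724950-69744660), a coupling factor counted by its name, was at 8.03, 8.43 and 7.78 CPM in KO, against 13.3, 14.6 and 14.6 CPM in WT, at day 4 (-0.81 ± 0.13, adjusted p = 6.84e-06). At day 3 it was at 7.28, 6.35 and 6.27 CPM in KO and 7.59, 10.5 and 8.31 CPM in WT, a call (-0.40 ± 0.13, adjusted p = 0.0155) lost on leaving out a single library (KO replicate 2 or 3 of day 3 or WT replicate 2 of day 3), with adjusted p of 0.054 to 0.141. Between days 3 and 4 KO gave 0.28 ± 0.13, adjusted p = 0.172, while it rose in WT (0.69 ± 0.13, adjusted p = 7.36e-05), and the difference of these steps missed the threshold (-0.40 ± 0.18, adjusted p = 0.114). Atp5l, subunit g, fell at day 2 in KO (-0.49 ± 0.07, adjusted p = 4.72e-07) and in WT (-0.67 ± 0.07, adjusted p = 2.87e-09).

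The beta and alpha subunits were the most abundant of the complex per length. Atp5b, the beta subunit, was at 2332, 2401 and 2316 CPM in KO and 2400.4, 2219.6 and 2131 CPM in WT at day 0, and at 1793, 1837 and 1798 CPM in KO and 1689, 1743 and 1669 CPM in WT at day 4. It fell at day 2 in KO (-0.21 ± 0.05, adjusted p = 0.000567) and WT (-0.28 ± 0.05, adjusted p = 1.29e-05). Atp5a1, the alpha subunit, was higher in KO at day 4, at 1226, 1249.9 and 1199 CPM against 1069, 1079 and 1038 CPM in WT (0.21 ± 0.04, adjusted p = 0.000198). The KO step to day 4 was -0.06 ± 0.04, adjusted p = 0.428, the WT step -0.28 ± 0.04, adjusted p = 5.15e-06, and their difference 0.23 ± 0.06, adjusted p = 0.00649.

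Of the 3 genes whose mature product is the same c subunit, Atp5g1 fell at day 2 in WT (-0.34 ± 0.11, adjusted p = 0.00959) and at day 4 in WT (-0.32 ± 0.11, adjusted p = 0.022), and both calls were lost on leaving out a single library. These were WT replicate 1 of day 0 or WT replicate 1 of day 2 for the first, with adjusted p of 0.0542 to 0.0573, and WT replicate 1 of day 3 or WT replicate 3 of day 4 for the second, with adjusted p of 0.0841 to 0.111. Atp5g2 was lower in KO at day 0 (-0.24 ± 0.06, adjusted p = 0.00625), which was lost without WT replicate 1 of that day (adjusted p = 0.0572). Atp5g3 rose at day 3 in WT (0.22 ± 0.07, adjusted p = 0.00814), which was lost without WT replicate 1 of day 3 (adjusted p = 0.0789). Atp5o, the stalk subunit OSCP, was higher in KO at day 2, at 54.3, 53.2 and 55.1 CPM against 41.8, 45.8 and 42.2 CPM in WT (0.32 ± 0.07, adjusted p = 0.00139). Of its exon length 47.9% overlaps other annotated entries on either strand, so its count is uncertain. On the same strand the overlap is 12.3%, with another entry that is also named Atp5o. Atp5j2, subunit f, was higher in KO at day 2 too, at 127, 129.7 and 151 CPM against 105, 117 and 113 CPM in WT (0.29 ± 0.07, adjusted p = 0.00335). Atp5f1, the b subunit of the stalk, gave -0.08 ± 0.06, adjusted p = 0.305 for the step to day 3 in KO and rose in WT (0.25 ± 0.06, adjusted p = 0.000928), and the steps differed (-0.34 ± 0.08, adjusted p = 0.00711).

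Lists of genes that serve the chain without being its subunits were counted in the same way. Among all tested genes, 20.8% were higher and 20.5% lower in KO at day 3, 26.3% and 27.6% at day 4, and 21.4% rose and 21.1% fell in WT at day 3 against day 2. Of 12 complex I assembly factors, 7 were lower and 0 higher in KO at day 3. At day 4, 4 of them were lower and 2 higher. In WT 6 rose and 2 fell at day 3 against day 2. Ndufaf4 was the clearest of these, with 1.37 ± 0.06, adjusted p = 4.34e-14 for the WT step and -0.92 ± 0.06, adjusted p = 4.39e-11 for KO against WT at day 3. Of 29 assembly factors of complexes II to V, 1 was higher and 15 lower in KO at day 3, and 2 higher and 13 lower at day 4. Coa3, needed for complex IV, gave -0.62 ± 0.08, adjusted p = 2.29e-06 on day 3. The median of both lists at day 3 was -0.30 and -0.19, beside -0.10 for the 75 members, -0.09 for ribosomal protein genes, -0.07 for the quintile of shortest genes and -0.01 for all genes.

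Of 7 tested electron carriers and subunits outside the naming rule, 5 were lower in KO at day 3 and 5 at day 4, and 0 higher. Cycs, cytochrome c, averaged 90.8 ± 2.26, 102 ± 1.62, 108 ± 4.81 and 115 ± 6.88 CPM in KO at days 0, 2, 3 and 4, and 101 ± 1.34, 109.8 ± 5.41, 151 ± 16.2 and 135 ± 5.89 CPM in WT (SD, n = 3 each). It was lower in KO at day 3 (-0.49 ± 0.06, adjusted p = 7.63e-07). Of 11 coenzyme Q genes, 4 were lower at day 3 and 0 higher, and 5 lower and 2 higher at day 4, where Coq8b gave -1.51 ± 0.15, adjusted p = 4.08e-09. Of 13 TCA cycle genes, 9 rose and 0 fell in WT at day 3 against day 2, and 5 rose and 0 fell in KO, where 14.7% of tested genes rose and 14.4% fell. In KO against WT, 2 TCA cycle genes were higher and 2 lower at day 0, and 2 and 3 at day 2. At day 3 these were 1 and 5, and at day 4 they were 3 and 3. Of 72 mitochondrial ribosomal protein genes, 32 fell and 12 rose in KO at day 2, and 38 fell and 9 rose in WT, beside 30.6% and 29.5% of tested genes in KO and 31.8% and 32.0% in WT. At day 3, 8 rose and 1 fell in KO and 32 rose and 1 fell in WT. Between the genotypes, 1 of these 72 was higher and 10 lower in KO at day 0, and 14 and 9 at day 2. At day 3 they were 6 and 21, and at day 4 they were 17 and 16. Of tested genes, 10.6% were higher and 10.5% lower in KO at day 0, and 16.2% and 15.7% at day 2. At day 3 these shares were 20.8% and 20.5%, and at day 4 they were 26.3% and 27.6%.

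Of 11 tested regulators of mitochondrial genes, 2 were higher and 3 lower in KO at day 0, 2 and 1 at day 2, 2 and 1 at day 3, and 4 and 2 at day 4, with medians of 0.025, 0.07, -0.02 and 0.10. Among them, Yy1 was lower in KO on all 4 days, with -0.82 ± 0.04, adjusted p = 7.8e-13 on day 0, -1.01 ± 0.05, adjusted p = 1.58e-14 on day 2, -0.87 ± 0.04, adjusted p = 1.85e-13 on day 3 and -0.68 ± 0.04, adjusted p = 5.92e-12 on day 4. It averaged 108 ± 3.82, 95.5 ± 0.764, 112 ± 1.79 and 115 ± 1.2 CPM in KO and 190.5 ± 5.07, 192.5 ± 11, 204 ± 8.06 and 184.5 ± 4.58 CPM in WT (SD, n = 3 each), without overlap. With 1 KO line, an effect of Setd3 on Yy1 and a property of that line cannot be told apart. The part of Yy1 in the member differences was not tested. Nrf1 averaged 92.8 ± 3.39 CPM in KO and 92.0 ± 1.31 CPM in WT at day 3. Members with the YY1 motif had a median log2 fold change of -0.09 at day 3 and -0.105 at day 4 in KO against WT, and members without it -0.12 and -0.10. Members with the NRF1 motif had -0.15 and -0.09, and those without it -0.11 and -0.10. These medians are descriptions of overlapping groups of genes and were not tested.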

How the data were processed

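The authors deposited raw counts per gene for 24 polyA+ RNA libraries. Trimmomatic, HISAT2 and GRCm38.p6 are named per the submitters' processing notes, while the counting tool, its use of strand and its treatment of reads with several matches are not stated by the sources at hand. From these counts, 1 edgeR (4.0.16) model of all 8 groups was fitted with TMM scaling and filterByExpr applied by group, after which 17144 genes were tested. Comparisons used the quasi-likelihood test with Benjamini-Hochberg adjustment over all genes and a threshold of 0.05. CPM are scaled by TMM. The edgeR test was tried on simulated data for KO against WT at day 0 only, with the same spread for all genes.

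The members and gene lists were chosen with earlier results of these data known. Named members were the 3 highest and 3 lowest log2 fold changes past the threshold in each comparison, the most and least abundant per length in each complex, the Sdh genes and subunit isoform sets, and other pathway genes by lowest adjusted p. Nrf1, Atp5f1, Ndufa7 and the remaining genes listed for differences of steps or for calls on 3 days were chosen after their values were seen. Results of 1 member by name are not reported here, and counts over all 75 include it. Alternatives were DESeq2 (1.42.0), a fit with its size factors, a fit to unfiltered counts, fits to the compared groups alone, a replicate block, and leaving out each library. A correction for exon length was added after seeing the data. Coordinates come from GENCODE on GRCm38 and promoters from RefSeq.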

Additional observations from a re-analysis of the deposited data

Results flagged for a closer look

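The steps below differed between KO and WT past the threshold of the edgeR test, and each value is the KO step minus the WT step on the log2 scale. From day 2 to day 3, all 7 were negative. Uqcr10 gave -0.38, Ndufs4 -0.35, Atp5o -0.35 and Atp5f1 -0.34. Atp5j2 gave -0.33, Ndufb3 -0.30 and Atp5c1 -0.26. From day 3 to day 4, the difference was -0.75 for Cox7a1, -0.67 for Ndufb4, -0.365 for Ndufa9 and -0.23 for Cox6a1. It was positive for 4 members, with 0.20 for Sdhb, 0.21 for Sdha, 0.23 for Atp5a1 and 0.30 for Ndufs4. Both sets share the day 3 libraries. Each difference compares 12 libraries, and many calls were lost when 1 of them was left out. This held for any 1 of 9 libraries for Ndufb3 (adjusted p of 0.0552 to 0.108), 7 for Atp5j2 (0.0573 to 0.134), 6 for Uqcr10 (0.0587 to 0.114), 6 for Atp5o (0.0578 to 0.0974) and 2 for Atp5c1 (0.0595 and 0.068) in the first set. In the second it held for 9 libraries for Cox6a1 (0.056 to 0.13), 6 for Cox7a1 (0.0535 to 0.0874), 4 for Sdhb (0.0584 to 0.114), 3 for Ndufa9 (0.0507 to 0.0584) and 1 for Ndufs4 (0.0505).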

How the results depend on the processing

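Of 3600 values of called members under alternatives, 3097 kept direction and call, 503 lost the call and 0 reversed. With only the groups compared, the members called numbered 3 for KO against WT at day 0, 26 for KO day 3 against day 2 and 13 for KO day 4 against day 3. For the difference of the steps from day 0 to day 2, where 0 were called, DESeq2 called 2, DESeq2 size factors 1, no filter 1, the replicate block 1 and the length correction 2. Leaving out 1 library gave 9 to 15 calls for KO against WT at day 0, 12 to 16 at day 2, 18 to 27 at day 3 and 28 to 34 at day 4. It gave 36 to 39, 9 to 14 and 3 to 4 for the successive KO steps, 46 to 54, 20 to 35 and 20 to 25 for the WT steps, and 0 to 3, 2 to 8 and 6 to 11 for their differences. With DESeq2 size factors the KO sums at day 0 were 2313.9 CPM for complex I, 659.9 for II, 1108.1 for III, 1483.8 for IV and 5874.3 for V, and complex II at day 3 was 683.9. The cause of these changes was not tested. Replicate numbers were not taken as pairs, because the correlations of same-numbered libraries ranged from -0.369 to 0.455 and only 22 of 84 were above 0.1, although 15 of 24 libraries correlated best with their own number, a hint from the data and not from the design.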
